A study of Rattus norvegicus with 48 samples.

Results

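Visceral and subcutaneous fat of the same sedentary rats were compared, rat by rat, through their gene expression. The comparison took the 24 libraries of control rats out of the 48 libraries of the series: 12 rats, each with 1 library of subcutaneous adipose tissue (SAT) and 1 of visceral adipose tissue (VAT), and no library of an exercised rat. All 12 were male adolescent rats that had not been exercised. In 6 of them (early control) tissue belonged to the early active phase, zeitgeber time 13, counted in hours after lights on. In the other 6 (late control) it belonged to the late active phase, zeitgeber time 23. The fat was collected on postnatal day 61, which for the exercised rats of the study was 24 h after their final session. The labels name neither the strain nor which visceral depot was sampled. The early and late libraries of a depot come from different rats, so an effect of the hour and any other difference between those 2 groups of rats cannot be told apart.

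Subcutaneous fat lies under the skin and visceral fat surrounds the organs of the abdominal cavity. Both store triglyceride in adipocytes and hold blood vessels, immune cells and fibroblast-like progenitors, but they arise from different embryonic cells and keep different sets of developmental transcription factors. Visceral fat is also covered by mesothelium, a thin epithelium that subcutaneous fat lacks. The deposited table names genes by Ensembl ID without symbols, and 0 of its IDs could be matched to a symbol. The labelled depots were therefore not checked against marker genes, and genes are described by their level and depot difference, with 4 IDs given by name. Each library is a piece of whole tissue, so fewer cells of a type and less RNA per cell cannot be told apart in any result below.

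The libraries held 13211806 to 17890033 estimated counts. Of 23481 genes in the table, 3664 had no count in the 24 libraries and 14123 passed the filter on low counts and were tested. Levels are given in CPM, counts scaled to the normalised library total, which can be compared between libraries for 1 gene but not between genes, since they are not scaled to length. In the smallest library 1 count was worth 0.0744 CPM, and a gene with 0 counts could have had up to 0.223 CPM (3 counts), a limit that covers counting error only. Some libraries stood apart. In SAT, early control 5 and early control 6 shared a set of strongly raised genes, which late control 6 carried at a lower level. In VAT, early control 5 had a raised set of its own. These sets are described after the depot results, and the counts of calls by direction, by fold and by phase were also computed without those 3 rats.

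The depots parted along the largest component of variation between the libraries. The first principal component of log2 CPM held 35.2% of the variance and parted the depots without overlap: VAT libraries lay between 7.50 and 46.9 on it and SAT libraries between -49.4 and -13.2. VAT lay above SAT in all 12 rats. The gap within a rat ran from 34.5 in early control 4 to 71.1 in late control 2. The second component, with 13.0% of the variance, parted the phases: every early library was negative on it and every late library positive, in both depots. The VAT libraries nearest to SAT on the first component were late control 4 (7.50), early control 5 (9.27) and early control 4 (17.0). The same 3 libraries had the most genes over 4-fold above the VAT median, with 67, 250 and 45 genes against 9 to 23 in the other 9 VAT libraries. The part of these raised genes in the position of the libraries was not tested.

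**Figure D1:**
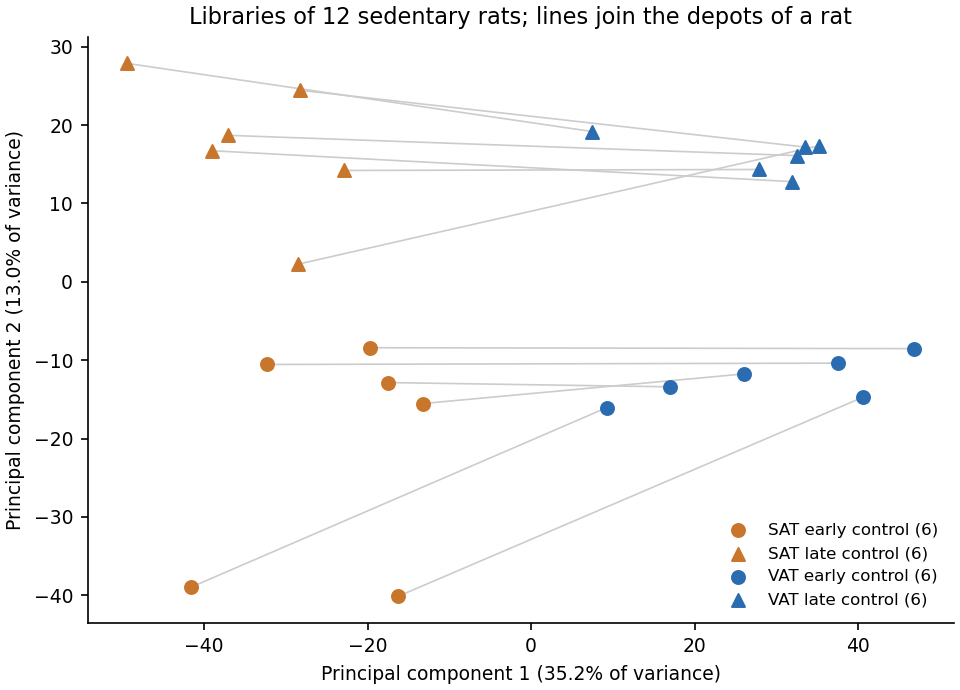
Principal components 1 (x axis) and 2 (y axis) of log2 CPM in 24 libraries, each point 1 library, coloured by depot and shaped by phase, with a line joining the depots of a rat. SAT libraries lie at -13.2 or lower and VAT libraries at 7.50 or higher on component 1, and early and late libraries lie on opposite sides of 0 on component 2.

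Most of the genes tested differed between the depots. edgeR's quasi-likelihood test, with the rat as a block, the depot difference averaged over the 2 phases and Benjamini-Hochberg adjustment at 0.05, called 7893 of 14123 genes (55.9%). Of these, 3923 were higher in VAT (27.8% of the genes tested) and 3970 higher in SAT (28.1%). Most differences were small: 70.6% of the called genes differed by less than 1.5-fold, and the median size over all called genes was 0.39 on the log2 scale. Taken over genes of all levels, the larger differences leaned towards SAT. Differences over 2-fold were called for 341 genes in favour of VAT and 584 in favour of SAT (2.41% and 4.14% of those tested), and over 4-fold for 66 and 130 (0.467% and 0.92%). Over 16-fold there were 15 and 30 genes (0.106% and 0.212%). Without early control 5, early control 6 and late control 6 the counts over 16-fold were 21 and 23.

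The near-even split of the calls depends on how libraries are scaled to each other. The trimmed mean of M-values (TMM) scaling used here gave factors of 1.00 to 1.14 to SAT libraries and 0.862 to 1.09 to VAT libraries. With library totals alone, an alternative added after seeing the data, VAT had the higher level for 2191 called genes and SAT for 6487, so that 25.2% of the calls were higher in VAT in place of 49.7%. The median difference over all genes then moved from -0.01 to -0.18 on the log2 scale. Under that scaling 55 genes favoured VAT and 162 favoured SAT by over 4-fold.

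The direction held from rat to rat more often for large differences than over all called genes. Among all called genes, 1695 of the 3923 higher in VAT (43.2%) and 1372 of the 3970 higher in SAT (34.6%) had the same sign in 12 of 12 rats. Among the genes over 2-fold these counts were 250 of 341 (73.3%) and 372 of 584 (63.7%). Over 4-fold they were 44 of 66 (66.7%) and 90 of 130 (69.2%). All 12 libraries of one depot lay beyond all 12 of the other for 265 genes higher in VAT (1.88% of those tested) and 343 genes higher in SAT (2.43%). Of the genes over 4-fold, 23 of the 66 higher in VAT and 66 of the 130 higher in SAT parted the depots in this way. Those sets were chosen on the same libraries, so the counts are descriptions. Their median differences were 2.70 and -2.91 on the log2 scale (VAT minus SAT), and 2 of the 66 genes higher in VAT had no count in any SAT library.

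Under TMM scaling, abundant genes leaned to VAT and scarce genes to SAT. The split by level was not computed with library totals. Among the 87 genes with a mean of at least 1000 CPM, 68 were called, 48 higher in VAT and 20 higher in SAT. Between 100 and 1000 CPM the counts were 662 and 431 of 1572 genes. Between 10 and 100 CPM they were 2445 and 2196 of 7534. Below that the order turned, with 687 higher in VAT and 1165 higher in SAT among 4130 genes at 1 to 10 CPM, and 81 and 158 among 800 genes under 1 CPM. Calls over 2-fold turned in the same way. They favoured VAT at 1000 CPM or more (14 against 8) and at 100 to 1000 CPM (58 against 32). At 10 to 100 CPM they favoured SAT, 137 against 97. So did those at 1 to 10 CPM (309 against 125) and under 1 CPM (98 against 47). The share called rose with level, from 29.9% under 1 CPM to 78.2% at 1000 CPM or more, as does the precision that counting allows.

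**Figure D2:**
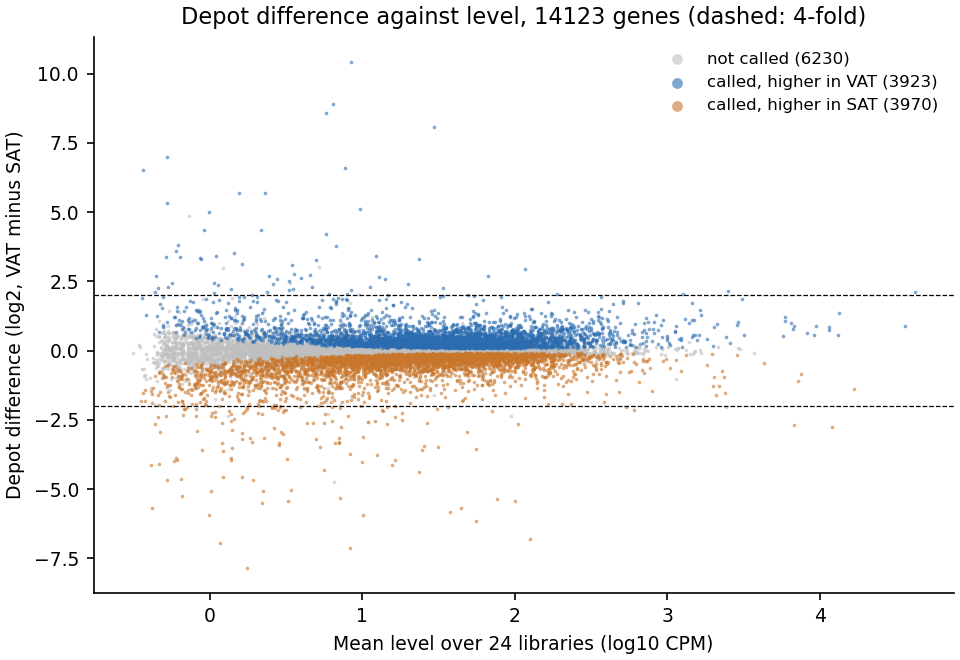
Depot difference (y axis, log2, VAT minus SAT) against the mean level over 24 libraries (x axis, log10 CPM), each point 1 of the genes tested, coloured by its call, with dashed lines at 4-fold. The 130 called genes over 4-fold higher in SAT and the 66 higher in VAT lie outside the dashed lines, and most other called genes lie close to 0.

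VAT libraries held more of their counts in few genes. The 20 most abundant genes of a library held 22.1% ± 1.28 of its counts in SAT (SD, n = 12; 19.9% to 23.9%) and 26.9% ± 2.83 in VAT (SD, n = 12; 22.1% to 30.2%). The share was higher in VAT in 10 of 12 rats, with a two-sided exact paired permutation p of 0.00195 (0.00586 after Benjamini-Hochberg adjustment over 3 measures). To reach 50% of the counts, a SAT library needed 372 to 522 genes (median 440) and a VAT library 222 to 493 (median 286). The most abundant gene of VAT alone averaged 1.69% of the normalised total in SAT and 6.67% in VAT. Its part in these gaps was not tested. The number of genes with a count did not pass the permutation test, at 16327 ± 278 in SAT and 16250 ± 225 in VAT (SD, n = 12 each; exact paired permutation p = 0.497). It was higher in VAT in 3 of 12 rats, with medians of 16387.5 in SAT and 16169 in VAT. The total count did not pass the test either (exact paired permutation p = 0.136). Genes called higher in VAT held 39.8% of the tested counts in SAT and 58.4% in VAT, and genes called higher in SAT 34.1% and 18.9%. As these genes were chosen on the same libraries, those shares are a description.

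The largest gains in CPM belonged to genes that were abundant in both depots. The gene with the largest gain in VAT, which was also the most abundant gene there, had 3584 to 38121 CPM in SAT (median 15242) and 23469 to 107676 CPM in VAT (median 71350). The highest SAT libraries lay above the lowest VAT libraries, but VAT was higher in 12 of 12 rats. The difference was 2.13 ± 0.12 on the log2 scale (SE; edgeR adjusted p = 1.15e-08). The next largest gain belonged to the most abundant gene of SAT, at 25627 ± 6042 CPM in SAT and 46242 ± 6331 CPM in VAT (SD, n = 12). It differed by only 0.88 ± 0.08 on the log2 scale (edgeR adjusted p = 1.2e-06). The third rose from 7633 ± 2957 CPM in SAT to 18969 ± 5813 CPM in VAT, a log2 difference of 1.36 ± 0.09 (edgeR adjusted p = 7.56e-08). Both were higher in VAT in 12 of 12 rats, and the depots overlapped for each.

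The largest losses from SAT to VAT parted the depots fully. The gene with the largest gain in SAT had 10334 to 39615 CPM in SAT (median 21506) and 1931 to 4441 CPM in VAT (median 2907). Every SAT library lay above every VAT library, and the mean was 6.98-fold higher in SAT (log2 -2.74 ± 0.19, edgeR adjusted p = 7.44e-08). The second had 24581 ± 8207 CPM in SAT and 9004 ± 1511 CPM in VAT (SD, n = 12; log2 -1.39 ± 0.16). The third had 11705 ± 4864 and 1736 ± 492 CPM (log2 -2.68 ± 0.21). Neither overlapped between the depots. For all 3 genes SAT varied more between rats than VAT in absolute terms.

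Few genes were near all or nothing. By a rule of at least 1 CPM in all 12 libraries of one depot and under 0.5 CPM in all 12 of the other, 4 genes were on in VAT alone and 3 in SAT alone. The 4 IDs followed by name were the 2 largest differences in each direction among called genes that had the same sign in 12 of 12 rats and averaged 5 CPM or more in 1 depot. Among the genes that met this rule they rank first by relative difference, not by the amount of RNA. None of the 4 reached 40 CPM in any library.

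ENSRNOG00000039931 was a VAT gene with next to no signal in SAT. In SAT it had 1 count in all, in early control 1, and 0 in the other 11 libraries. In VAT it lay between 2.01 CPM in late control 2 and 36.4 CPM in early control 2, with a median of 14.0. The summed counts were 1 in SAT and 3094 in VAT, a depth-adjusted ratio of 3331 with a 95% interval of 597 to 131592, which covers counting error only. The fitted log2 difference was 10.42 ± 0.26 (SE, edgeR adjusted p = 1.1e-08), a value that depends on the prior count because SAT is near 0. Its SE is derived from that value and the test statistic, so it depends on the prior count too. It does not cover the wide counting interval of the ratio. The depots did not overlap.

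ENSRNOG00000013074 had a similar profile, with 4 counts in SAT, spread over 3 libraries, and 2334 in VAT. VAT levels ran from 5.37 to 21.2 CPM (median 11.9), and the highest SAT library reached 0.149 CPM. The ratio of summed counts was 628 with a 95% interval of 245 to 2307, and the fitted log2 difference 8.92 ± 0.28 (edgeR adjusted p = 7.53e-11). With SAT near 0 here too, this value and its SE carry the same limits. Every VAT library lay far above every SAT library. Both IDs were lowest in VAT of late control 2, and their highest levels were in early control 2 and early control 3.

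The levels of these 2 IDs moved together across the VAT libraries. Over 12 rats their log2 CPM correlated at a Pearson r of 0.925 (two-sided permutation p = 2e-05, the smallest that the permutations drawn can give, 6e-05 adjusted over 3 relations) and a Spearman rho of 0.979 (permutation p = 2e-05). Without the 2 rats farthest from the median r was 0.922, and it was 0.960 within the 6 early rats and 0.981 within the 6 late rats. Of the other 65 genes over 4-fold higher in VAT, 20 correlated with ENSRNOG00000039931 at r over 0.8 across the 12 VAT libraries, against 73 of all other 14122 genes (0.517%). This count describes genes that were chosen on the same 12 libraries and was not tested.

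ENSRNOG00000001957 was high in SAT. It lay between 0.727 CPM in early control 4 and 33.7 CPM in late control 1 in SAT, with a median of 15.5, and between 0 and 0.371 CPM in VAT, where 3 libraries had no count. The lowest SAT library still lay above the highest VAT library. Counts summed to 3278 in SAT and 19 in VAT, a ratio of 160 with a 95% interval of 102 to 267 (log2 -7.14 ± 0.21, edgeR adjusted p = 5.61e-11). Its SAT level also parted the phases. It was 7.68 ± 4.70 CPM in early rats (0.727 to 12.7) and 25.4 ± 6.82 CPM in late rats (18.3 to 33.7; SD, n = 6 each), without overlap. This phase difference was not tested here.

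ENSRNOG00000014378 was the steadier of the SAT pair. SAT levels ran from 12.9 to 35.2 CPM (median 18.4) and VAT levels from 0.0634 to 0.734 CPM (median 0.284). The depots did not overlap. Counts summed to 3873 in SAT and 59 in VAT, a ratio of 60.98 with a 95% interval of 47.2 to 80.3 (log2 -5.92 ± 0.21, edgeR adjusted p = 2.24e-10). Across the 12 SAT libraries the SAT pair correlated at a Pearson r of 0.544 (permutation p = 0.046, 0.069 adjusted over 3 relations) and a Spearman rho of 0.483 (permutation p = 0.114, 0.171 adjusted). Without the 2 rats farthest from the median r was 0.426, and within phases it was 0.516 early and 0.321 late. None of the other 129 genes over 4-fold higher in SAT correlated with this ID at r over 0.8 across the SAT libraries, against 38 of all other 14122 genes (0.269%).

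**Figure D3:**
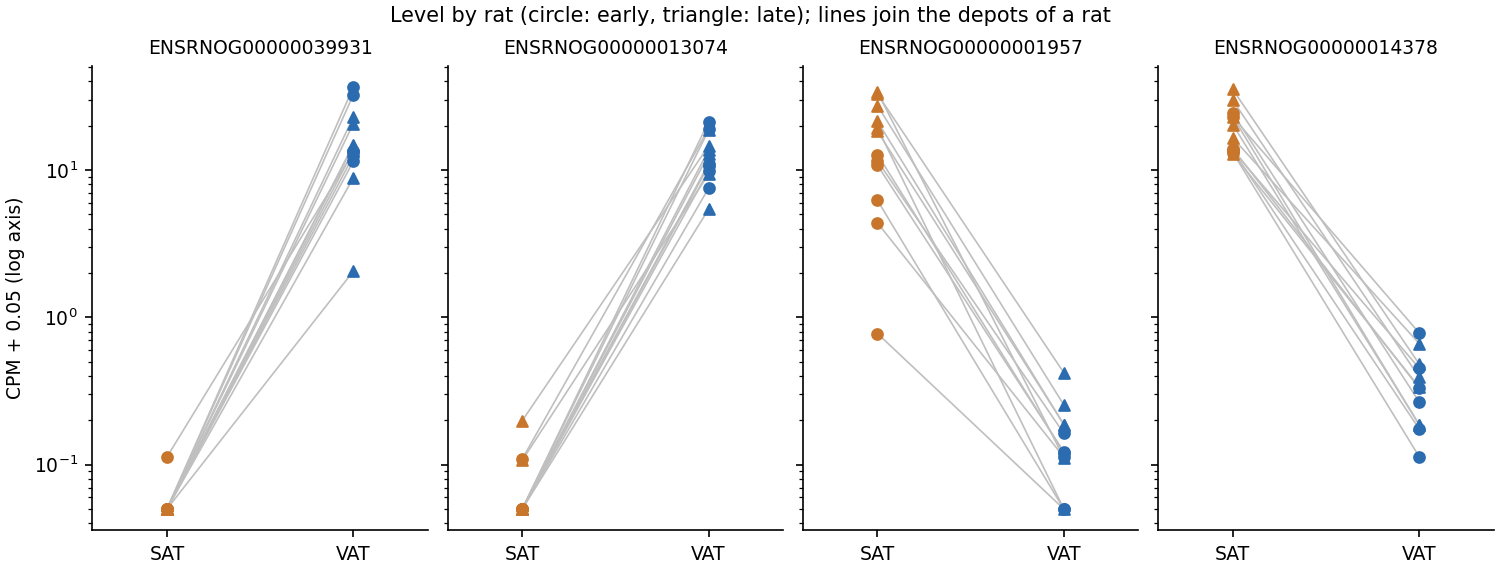
Level of the 4 named IDs in SAT and VAT (x axis) of 12 sedentary rats, as CPM + 0.05 on a log axis (y axis), each point 1 library (circle early, triangle late) and each line 1 rat. For the 2 IDs on the left every VAT library lies above every SAT library, and for the 2 on the right every SAT library lies above every VAT library.

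The third relation computed over rats asked whether a rat whose SAT lies far out on the depot axis also has VAT far out. The positions of the 2 depots of a rat on the first component correlated at a Pearson r of 0.483 (permutation p = 0.118) and a Spearman rho of 0.357 (permutation p = 0.254), neither below 0.05. Without the 2 rats farthest from the median r was 0.356. Within phases it was 0.410 in the 6 early rats and 0.708 in the 6 late rats.

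The depot difference was present in each phase. In the early phase 4969 genes were called (35.2% of those tested), 2473 of them higher in VAT (17.5%) and 2496 higher in SAT (17.7%). In the late phase 6767 were called (47.9%), 3532 of them higher in VAT (25%) and 3235 higher in SAT (22.9%), by edgeR's quasi-likelihood test with Benjamini-Hochberg adjustment in 1 fit of both phases. Over 4-fold, the counts were 64 higher in VAT and 127 higher in SAT early, and 69 and 144 late. Of the genes called early, 4012 were called late in the same direction, which is 80.7% of the early calls and 59.3% of the late calls. Only 3 genes were called in opposite directions. Without the 3 rats whose SAT libraries share raised genes, 3653 genes were called early and 6345 late.

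Fitted apart, the phases share no rat and no library. Of 13513 genes tested in both fits, 4310 were called early and 6588 late. The fits had 3482 calls in common with the same direction (80.8% of early and 52.9% of late calls), and 3 genes opposite. Fold changes of the 2 fits had the same sign for 79.9% of genes and correlated at r = 0.825 across genes, which are not independent replicates.

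Genes picked for a large difference in one phase kept it in rats of the other. The 35 genes over 4-fold higher in VAT in early rats had a median difference of 2.52 there and 2.47 in late rats, where all 35 had the same sign and 33 were called. The 85 genes over 4-fold higher in SAT in early rats went from a median of -2.87 to -2.43, with 84 of the same sign and 71 called. Picked in late rats, 46 genes higher in VAT went from 2.52 to 2.01 in early rats (44 of the same sign, 38 called), and 106 genes higher in SAT from -2.47 to -2.10 (104 and 93). Of all 13513 genes, 3320 were called higher in VAT and 3268 higher in SAT in late rats. In early rats these counts were 2336 and 1974. Values in the phase that chose the genes are descriptions.

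**Figure D4:**
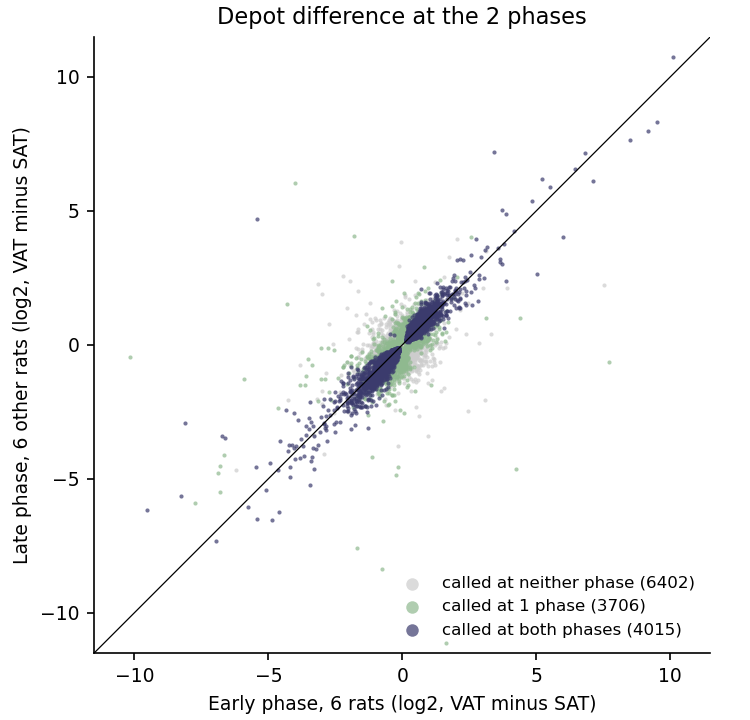
Depot difference of each gene (log2, VAT minus SAT) in early control rats (x axis) and late control rats (y axis), coloured by the phases in which it was called. Genes called in both phases lie along the diagonal, with 3 called in opposite directions.

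No gene passed the test of whether its depot difference itself differed between phases. edgeR called 0 of 14123 genes for the interaction (0%), while 1971 had an unadjusted p under 0.05 and the lowest adjusted p was 0.0906. limma voom also called 0 and DESeq2 206. A larger number of calls late than early is thus not shown to be a stronger depot difference for any single gene by the test used here. Nor do 0 calls show that the depot differences are equal. Chance alone gives an unadjusted p under 0.05 for about 1 gene in 20, fewer than the 1971 found by edgeR. This excess was not tested. The 4 named IDs had log2 differences of 10.09 early and 10.75 late, 9.52 and 8.32, -6.95 and -7.33, and -5.77 and -6.07, in the order given above. Their edgeR interaction adjusted p values were 0.672, 0.652, 0.921 and 0.833. The first ID had no count in SAT of any late rat, so its late value is set by the prior count. For the second, SAT counts were few in either phase. For both VAT IDs the early and late values do not measure a phase difference.

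The genes with the smallest interaction p in each direction show what such a pattern looks like. One had 151 ± 25.5 CPM early and 167 ± 22.6 CPM late in SAT, but 101 ± 12.4 CPM early and 181 ± 12.9 CPM late in VAT (SD, n = 6 each; late minus early depot difference 0.70 ± 0.12 on the log2 scale, edgeR adjusted p = 0.0906). Its VAT libraries did not overlap between phases, while its SAT libraries did. The other had 27.3 ± 14.6 and 12.5 ± 2.10 CPM in SAT and 76.5 ± 32.8 and 19.3 ± 4.26 CPM in VAT, early and late (log2 -0.95 ± 0.15, edgeR adjusted p = 0.0906). It was higher in VAT in 12 of 12 rats, by more in early rats.

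Over all 12 rats, the spread between rats was of similar size in the depots. The common biological coefficient of variation, the spread between rats beyond counting error, was 22.5% in SAT and 21.1% in VAT. It was 18.8% in the 9 SAT libraries without the 3 rats with raised SAT genes. In the 11 VAT libraries without early control 5 it was 16.3%, so these values come from unlike sets of rats. The median SD of a gene's log2 CPM within group was 0.21 in SAT and 0.19 in VAT, and 56.2% of genes had the larger SD in SAT. This difference in spread was not tested.

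Rats also differed, for some genes, in ways that both depots shared. Deviations from the group mean were correlated between SAT and VAT over 12 rats. Of 14123 genes tested, r was over 0.8 for 318 and under -0.8 for 7. Across all genes, the same-rat correlation of the depots was low, at 0.0243 to 0.238. A pair of genes lay under 0.1 CPM in both depots of 2 rats and over 1 CPM in both depots of the other rats, reaching 54.0 CPM, and neither was called between depots. Such differences between rats are removed by the block in the depot test.

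A set of 98 genes lay over 4-fold above the SAT median in both SAT early control 5 and SAT early control 6. Summed over the set, the level was 46735 CPM in early control 5, 26625 in early control 6 and 4214 in late control 6, against 275 to 361 in the other 9 SAT libraries and 266 to 972 in the 12 VAT libraries. The set thus took 4.86% and 2.70% of the counts of the first 2 libraries. The VAT of the same 3 rats summed to 972, 353 and 266 CPM, so VAT early control 5 was the highest of the VAT libraries. In the depot test 43 of the 98 were called higher in SAT, 3 higher in VAT and 52 not at all, so that 46.9% were called against 55.9% of all genes tested (28.1% higher in SAT and 27.8% higher in VAT). The set was chosen for high levels in SAT libraries, which favours calls towards SAT, so its direction is a description. Outside the 3 raised SAT libraries these were scarce genes, with a median of 0.909 to 1.15 CPM in SAT and 0.752 to 1.69 CPM in VAT. Of all genes tested, 29.9% were called at a mean under 1 CPM and 44.8% at 1 to 10 CPM. The share among genes matched for level was not computed. Genes of this set made up 24 of the 130 genes over 4-fold higher in SAT and 9 of the 30 over 16-fold.

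Another set of 250 genes lay over 4-fold above the VAT median in VAT early control 5. It summed to 9073 CPM there, 787 to 1315 CPM in the other 11 VAT libraries and 1084 to 2002 CPM in SAT. Of these genes 43 were called higher in SAT, 8 higher in VAT and 199 not at all. That is 20.4% called, against the same 55.9% of all genes tested, in a set chosen on 1 library of the comparison. The set's median was 1.15 to 1.68 CPM in the other 11 VAT libraries and 1.67 to 2.67 CPM in SAT. Of all genes tested with a mean of 1 to 10 CPM, 44.8% were called, 687 higher in VAT and 1165 higher in SAT. The 2 sets share 8 genes.

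Without early control 5, early control 6 and late control 6 (9 rats, an alternative added after seeing the data), edgeR called 7235 genes, of which VAT had the higher level for 3572 and SAT for 3663, with 79 and 121 over 4-fold. Of the first calls, 6821 were among them with the same direction. Of the 66 genes over 4-fold higher in VAT, 64 were still called and 60 still over 4-fold. Of the 130 higher in SAT, 125 were still tested, 112 called and 98 over 4-fold.

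**Figure D5:**
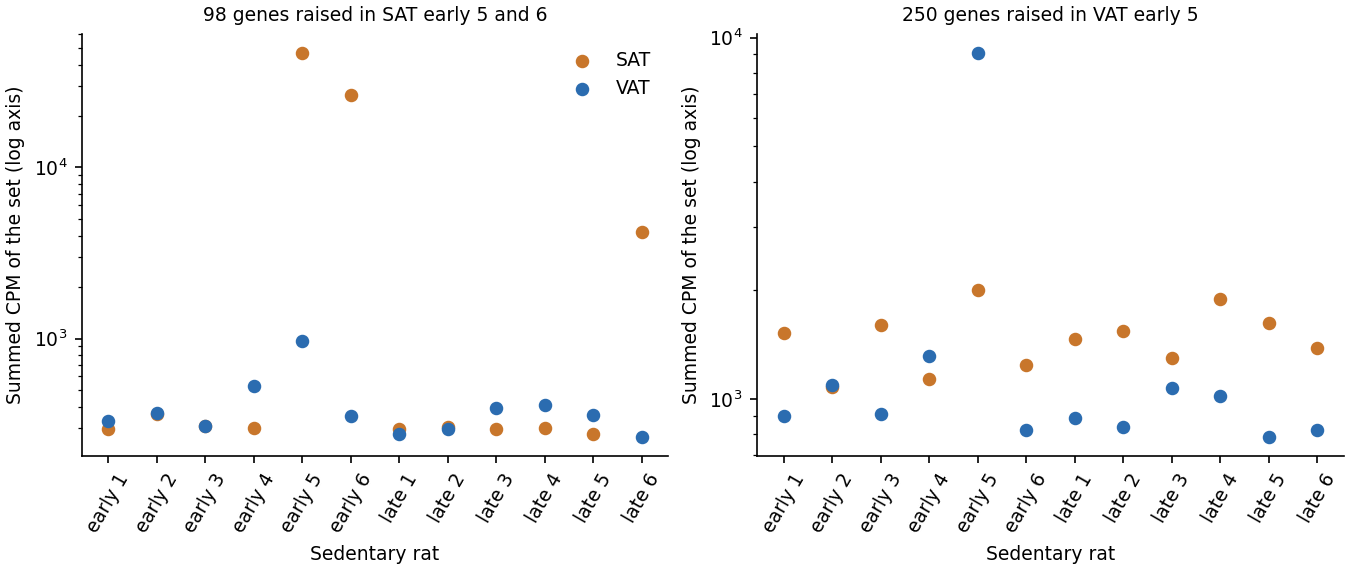
Summed level (y axis, CPM, log axis) of the 98 genes raised in SAT early control 5 and 6 and of the 250 genes raised in VAT early control 5, in each library of SAT and VAT (x axis). The first set reaches 46735, 26625 and 4214 CPM in 3 SAT libraries and lies under 1000 CPM in all others, and the second reaches 9073 CPM in 1 VAT library.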

How the data were processed

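PolyA-selected RNA was sequenced as 50-nt single-end reads, an average of 21 M per library, from RNA with an integrity number over 9, per the labels' protocols. The authors deposited estimated counts, 1 whole number per gene and library. The submitters' processing notes list Salmon 1.4.0 and the build rn6, and the annotation release is not given in the sources at hand. No sequencing batch is named in the labels. The 24 columns of exercised rats were not used. Depots were paired by rat through phase and replicate number in the labels. For 12 of 12 rats, over 50 genes chosen without that rat, its own other depot was the nearest of 6.

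Counts were fitted with edgeR 4.0.16 in R 4.3.3: TMM, filterByExpr, rat as a block, depot and depot by phase, quasi-likelihood F test, Benjamini-Hochberg adjustment at 0.05. The standard error is the log2 fold change over the square root of F. Log2 CPM values for single libraries used a pseudocount of 0.5. Tested genes held at least 99.5% of each library's counts. No library looked like a copy of another: chi-square per degree of freedom was 8.15 to 135 over the 60 pairs of libraries of the same group. Alternatives were DESeq2 1.42.0 (size factors, Wald test), limma 3.58.1 voom, no filter, no replicate block, each phase alone and leaving out each rat; library totals, 9 rats and the split of these counts by direction were added after seeing the data. Named IDs were the 2 largest differences in each direction with the same sign in 12 of 12 rats and at least 5 CPM in 1 depot. The 40 gene lists were not analysed, because 0 IDs matched a symbol. The comparison, lists and rules were chosen with earlier results of these data known.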

Additional observations from a re-analysis of the deposited data

Results flagged for a closer look

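A gap test for a single outlying library, run on 27 combinations of group and measure, picked out 3 values, where chance alone gives about 1 in 20. VAT early control 5 had 16864 genes with a count, against 16066 to 16315 in the other 5 libraries of its group. The same library had 250 genes over 4-fold above the VAT median, against 13 to 45. VAT late control 4 had 67 such genes, against 9 to 17 in its group. Without early control 5, edgeR called 8056 genes between the depots.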

How the results depend on the processing

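The main count of 7893 depot calls stayed within 1.5 times under every alternative fit: 7491 without the replicate block (7283 with the same direction), 7889 with DESeq2 size factors, 7820 without the filter, 7673 with DESeq2, 8420 with limma voom, 8678 with library totals, 7235 with 9 rats and 7295 to 8056 when each rat was left out. Pairing by rat changed no call of a named ID; without the replicate block 4642 genes were called early, 6182 late and 0 for the interaction. Restricting calls by size gave 925 over 2-fold and 196 over 4-fold. Without the filter, which lets in scarcer genes, 122 genes favoured VAT and 295 favoured SAT by over 4-fold, and the correlation across genes of early with late differences, 0.7662 in the fit of both phases, was 0.4343. Library totals gave 2191 calls in favour of VAT and 6487 in favour of SAT. The interaction count was 206 with DESeq2, 1 with 9 rats and 0 to 1 when each rat was left out (1 without early control 5 and 1 without late control 3); the cause was not tested. The 4 named IDs kept their direction and call in each of 19 alternatives, including the fit without the replicate block. They had been chosen on the same libraries for the largest differences with the same sign in every rat. Leaving out rats could thus hardly turn their direction, and differences of this size could hardly lose their call. The unchanged calls are a description and not a test of these IDs. The log2 differences of the 4 IDs ran from 8.62 to 11.08, 8.09 to 9.45, -7.33 to -6.90 and -6.11 to -5.84. The gene list counts fixed as alternatives were not run, because IDs could not be paired with symbols. Depth limits genes near 0.223 CPM, where 0 counts cannot be told from a low level.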
